A study of Mus musculus with 12 samples.

Results

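The collagen gene family was examined in the hearts of WT and *Fabp3*-null (F3-KO) mice. Its members were taken as the genes of the deposited count table whose symbol is Col, a number, a and a number, and which had at least 10 counts in 3 or more of the 12 hearts. Of 43 such symbols among the 19308 genes of the table, 33 met the rule and 10 did not. Fabp3 is the heart-type fatty acid binding protein, a cytosolic carrier of fatty acids in cardiomyocytes, and F3-KO mice lack it in the whole body after CRISPR-Cas9 editing. The paper names purchased male C57BL/6 mice and does not state the sex or strain of the F3-KO mice separately. All mice had surgery at 8 weeks of age, and heart RNA was taken 1 week later. Mice of both genotypes had either a sham operation or transverse aortic constriction (TAC), in which a narrowed aortic arch raises the load on the left ventricle, which gave 3 hearts in each of 4 groups.

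Collagens are secreted proteins whose chains wind around each other into a rope-like helix, and they form much of the extracellular matrix of the heart. Fibroblasts make most of the fibrillar types, which carry tension between muscle bundles, whereas cardiomyocytes, endothelial cells and mural cells also contribute to the basement membrane types that surround each cell. Pressure overload is known to be followed by deposition of fibrillar collagen in the ventricular wall, termed fibrosis. The 33 members fell into 8 fibrillar, 5 basement membrane, 5 beaded filament (type VI), 6 FACIT (collagens that decorate fibrils), 2 multiplexin (basement membrane collagens that carry a C-terminal endostatin-like domain), 2 network-forming, 2 transmembrane and 3 other genes.

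Because glycine has to recur at a fixed spacing for the helix to form, the fibrillar class can be told apart from the others in its coding sequences, and stretches of 30 codons from 3 members are shown for that reason. Capitals mark the glycine codons, which begin with GG, in transcripts of GENCODE vM21 (GRCm38). *Col1a1* (chromosome 11, codons 675 to 704) and *Col3a1* (chromosome 1, codons 680 to 709) are fibrillar and are shown inside their longest run. *Col4a1* (chromosome 8, codons 145 to 174) is shown over the last 18 codons of its longest run and the 12 codons that follow it.
Col1a1: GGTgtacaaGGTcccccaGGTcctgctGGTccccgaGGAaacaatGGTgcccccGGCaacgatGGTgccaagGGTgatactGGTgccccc
Col3a1: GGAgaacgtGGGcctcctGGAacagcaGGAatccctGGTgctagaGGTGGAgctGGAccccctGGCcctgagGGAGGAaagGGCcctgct
Col4a1: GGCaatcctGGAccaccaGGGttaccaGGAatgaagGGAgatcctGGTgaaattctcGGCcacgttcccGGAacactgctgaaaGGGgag

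By the placing of the stretches, the spacing held throughout in the fibrillar pair and broke off in *Col4a1*, so the classes are compared by run length. Counted in triplets of codons that open with a glycine codon, the longest run spanned 217 to 344 triplets in the 8 fibrillar members. It spanned 39 to 66 triplets in the basement membrane members, 37 to 87 in the beaded filament members, 60 to 61 in the network-forming members and 30 in both multiplexins. The FACIT members ranged from 32 to 113 triplets. Thus, the fibrillar class stood apart from every other class by its uninterrupted helix. Such a helix is part of what the label fibrillar means, so the run lengths describe the classes and are no independent result.

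Total counts per heart were 10424334 to 14372011. A floor of 3 counts, under which levels were not told apart, was worth 0.209 to 0.288 counts per 1e+06 counts of the unscaled library. Levels are given as CPM, counts per 1e+06 counts of the library with the library scaled by TMM factors. *Fabp3* was 2850, 2430 and 2120 CPM in WT sham hearts, 1090, 1040 and 1070 CPM in F3-KO sham hearts, 3060, 2890 and 2900 CPM in WT TAC hearts and 1140, 1000 and 1010 CPM in F3-KO TAC hearts. F3-KO hearts lay below all WT hearts, and counts of the gene remained in each of them. *Nppb*, which encodes the natriuretic peptide BNP that cardiomyocytes release under load, was 411 to 776 CPM in TAC hearts and 95 to 311 CPM in sham hearts, so that every TAC heart exceeded every sham heart. Defining markers of adipocytes, a tissue that can adhere to the heart, summed to at most 1.59 CPM. Besides the members, *Col11a1* lay just outside the choice, with 192 counts in F3-KO TAC replicate 2 and fewer than 10 elsewhere. *Col6a5*, *Col7a1*, *Col8a2*, *Col9a2* and *Col22a1* lay just inside it, with 10 counts or more in exactly 3 hearts. For *Col8a2* and *Col9a2* these were all TAC hearts, so the choice itself favoured higher values after TAC in them. Most of these hearts were F3-KO TAC hearts, so it also favoured higher values in F3-KO than in WT after TAC. In these bulk samples, fewer cells of a type and less RNA per cell cannot be told apart.

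In the plot of class sums by heart, the 33 members together made up 1480, 1220 and 1280 CPM in WT sham hearts (replicates 1, 2 and 3, the order kept for all values listed by heart). The sum was 2460, 1570 and 1370 CPM in F3-KO sham hearts. After TAC it was 4910, 2410 and 1150 CPM in WT hearts and 6830, 9320 and 1480 CPM in F3-KO hearts. The values in both TAC groups therefore spread widely: replicates 1 and 2 lay above the sham hearts of their genotype, whereas replicate 3 lay below them in WT and among them in F3-KO. In F3-KO TAC replicate 2, collagen transcripts reached 1.02% of all counts, against 0.123% to 0.146% in the WT sham hearts.

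**Figure D1:**
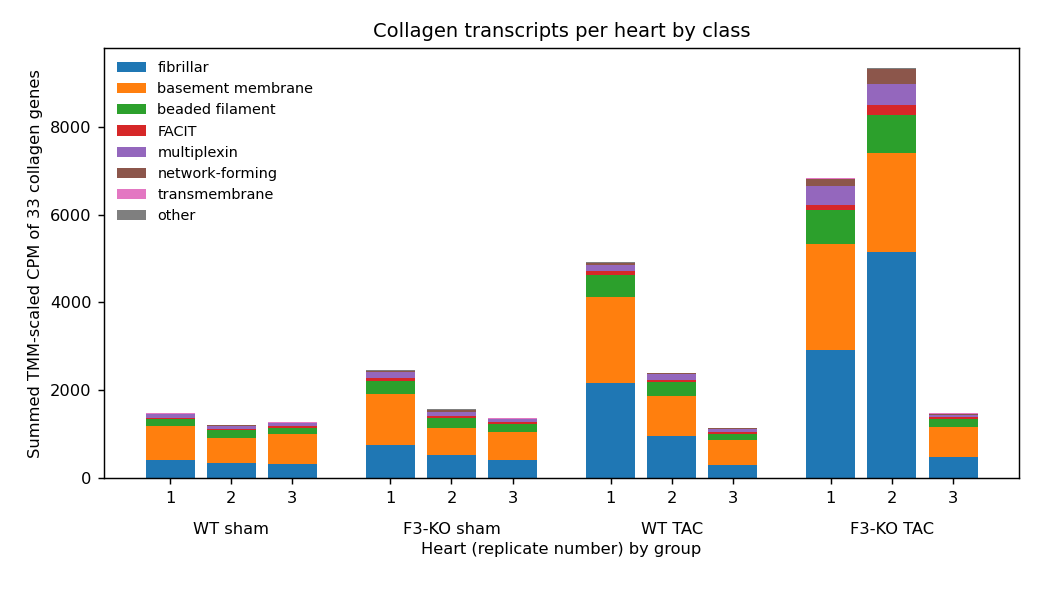
Summed TMM-scaled CPM of the 33 collagen genes in each of the 12 hearts (bars, replicates 1, 2 and 3 of each group), stacked by class. The bars of WT TAC replicate 3 (1150 CPM) and F3-KO TAC replicate 3 (1480 CPM) stand at the height of the sham bars, and that of F3-KO TAC replicate 2 (9320 CPM) is the tallest.

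The make-up of the sum also differed between hearts. Basement membrane genes held 52.3%, 47.5% and 53.1% of collagen counts in WT sham hearts, and fibrillar genes 28.0%, 28.1% and 25.6%. In WT TAC hearts the fibrillar share was 44.2%, 40.3% and 26.9%, and in F3-KO TAC hearts it was 42.9%, 55.2% and 33.5%. The TAC hearts with a high collagen sum were thus those with a fibrillar share above 40%, and the basement membrane share in F3-KO TAC replicate 2 was 24.0%. Multiplexins held 2.61% to 6.44% of collagen counts over the 12 hearts, beaded filament genes 9.32% to 14.6% and FACIT genes 1.65% to 3.49%.

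Levels of different members were compared per kilobase of transcript. In WT sham hearts the order was led by *Col4a1* (51.2 ± 8.02 CPM per kilobase, SD, n = 3) and *Col4a2* (44.7 ± 6.19), the chains of the common basement membrane network. They were followed by *Col3a1* (18.8 ± 6.91), *Col1a2* (17.2 ± 2.33), *Col6a1* (16.5 ± 1.67), *Col6a2* (15.7 ± 0.285), *Col1a1* (14.4 ± 1.40) and *Col15a1* (10.7 ± 1.27). *Col4a1* and *Col4a2*, and likewise each pair of neighbours from *Col3a1* to *Col1a1*, differed by less than the larger of their SDs. In F3-KO TAC hearts *Col3a1* led with 200 ± 156 CPM per kilobase, before *Col4a1* with 151 ± 87.7, *Col1a1* with 129 ± 121, *Col1a2* with 113 ± 94.8 and *Col4a2* with 107 ± 54.3, and each gap between neighbours was smaller than their SDs. *Col3a1* and *Col4a1* kept the first and second place there when all annotated exons were used as the length.

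No member was differentially expressed at an adjusted p under 0.05 in any of the 6 comparisons (edgeR, quasi-likelihood, Benjamini-Hochberg over 14094 genes). The smallest adjusted p of the 32 tested members was 0.782 for TAC against sham in WT, 0.175 for TAC against sham in F3-KO and 0.104 for TAC against sham averaged over the genotypes. It was 0.969 for F3-KO against WT after sham, 0.377 after TAC and 0.954 for the interaction. Over all genes, 0% passed in WT, 0% in F3-KO, 0.078% in the averaged contrast, 0.106% after sham, 0.078% after TAC and 0% in the interaction. *Col9a2*, a cartilage FACIT, was the member that was not tested, since it had 28, 10 and 68 counts in WT TAC replicate 1 and in F3-KO TAC replicates 1 and 2 and at most 3 elsewhere.

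To see how TAC related to collagen expression in each genotype, fold changes and unadjusted p-values are described next. At an unadjusted p under 0.05, TAC against sham gave 5 of 32 members higher in WT (15.6%, against 3.68% of all genes), 19 in F3-KO (59.4%, against 10.6%) and 22 in the averaged contrast (68.8%, against 11.3%), and no member was lower, against 2.6%, 6.47% and 6.52% of all genes. The median log2 fold change of the members was 0.84, 1.30 and 1.17, respectively, where that of all genes was 0.00, 0.02 and 0.00. In each of these contrasts 29 of 32 members had a fold change above 0. By class, the median in the averaged contrast was 2.07 for network-forming, 1.60 for fibrillar, 1.30 for FACIT, 1.16 for beaded filament, 1.08 for multiplexin, 1.06 for other, 0.77 for basement membrane and 0.03 for transmembrane members. The network-forming class has 2 genes, and 1 of them, *Col8a2*, had 502 counts in F3-KO TAC replicate 2 and at most 31 in any other heart. Its averaged log2 fold change ranged from 0.663 to 2.6 over the alternative fits.

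**Figure D2:**
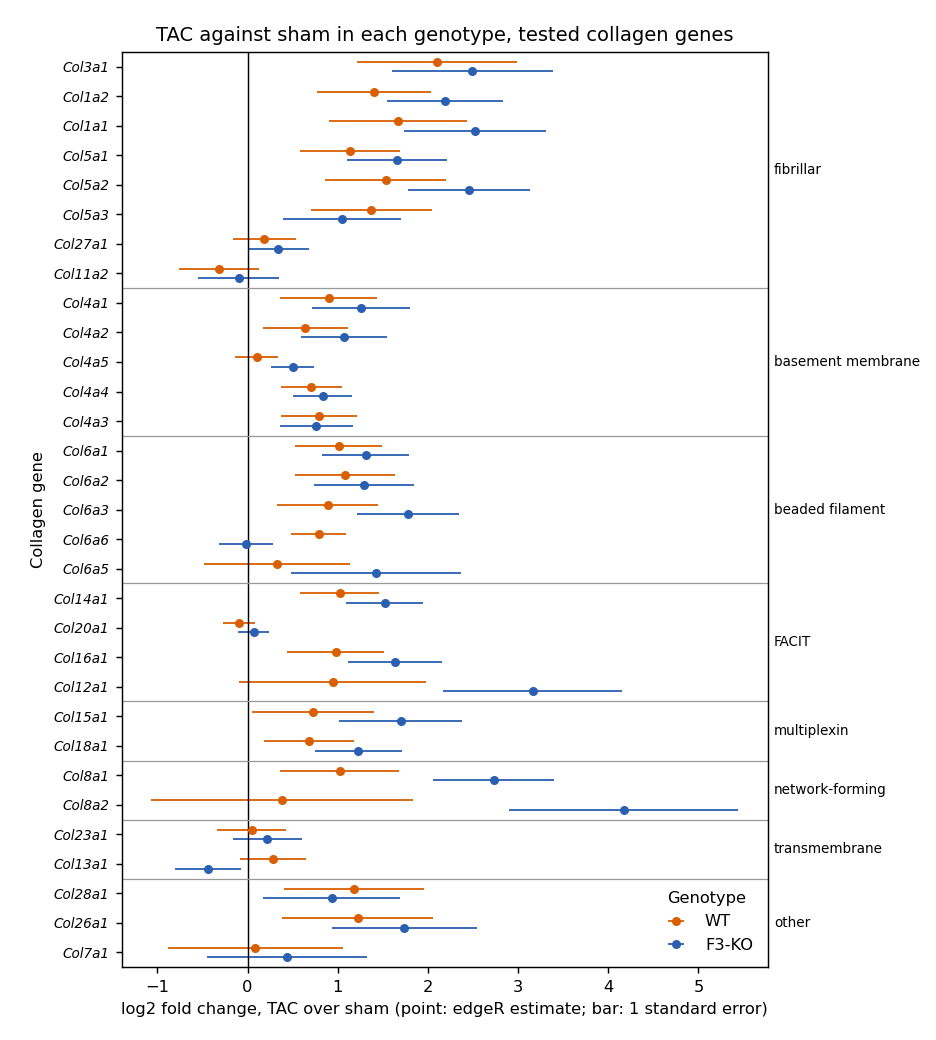
edgeR log2 fold change of TAC over sham (x axis, bars of 1 standard error) for the tested collagen genes other than *Col22a1*, by class, in WT (orange) and F3-KO (blue). *Col1a1* lies at 1.67 in WT and 2.52 in F3-KO with overlapping error bars, and the estimates of the genotypes lie furthest apart for *Col8a2*, *Col12a1* and *Col8a1*.

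Among the fibrillar genes, *Col1a1* (NCBI gene 12842), a chain of type I collagen and the stiff core of scar, was 89.5, 75.6 and 90.4 CPM in WT sham and 190, 118 and 91.1 CPM in F3-KO sham hearts. After TAC it was 466, 270 and 75.2 CPM in WT and 656, 1530 and 103 CPM in F3-KO hearts. The log2 fold change of TAC against sham was 1.67 (SE 0.77, adjusted p = 0.782, edgeR) in WT and 2.52 (SE 0.79, adjusted p = 0.184, edgeR) in F3-KO. In both genotypes the groups overlapped through replicate 3. *Col1a2*, the partner chain, was 95.5, 102 and 77.9 CPM in WT sham, 137, 145 and 116 CPM in F3-KO sham, 428, 211 and 89.4 CPM in WT TAC and 545, 1140 and 131 CPM in F3-KO TAC hearts, with the same TAC hearts high and low. The ratio of *Col1a1* to *Col1a2* counts stayed within 0.741 to 1.38 over the 12 hearts, while *Col1a1* itself ranged from 75.2 to 1530 CPM.

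*Col3a1* (NCBI gene 12825), type III collagen of finer and more compliant fibrils, was 148, 74.5 and 91.8 CPM in WT sham, 283, 167 and 141 CPM in F3-KO sham, 944, 341 and 64.3 CPM in WT TAC and 1330, 1850 and 151 CPM in F3-KO TAC hearts. WT TAC replicate 3 was the lowest of the 12 hearts. The log2 fold change of TAC against sham was 2.10 (SE 0.88, adjusted p = 0.782, edgeR) in WT and 2.49 (SE 0.89, adjusted p = 0.208, edgeR) in F3-KO. The ratio of *Col1a1* to *Col3a1* counts was lowest in replicate 1 of both TAC groups (0.494) and highest in WT TAC replicate 3 (1.17).

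Type V collagen starts fibrils and limits their width. *Col5a1* was 35.5, 39.9 and 32.5 CPM in WT sham, 65, 47.2 and 38.8 CPM in F3-KO sham, 134, 71.2 and 31.8 CPM in WT TAC and 182, 250 and 44.6 CPM in F3-KO TAC hearts. *Col5a2* was 23.4, 27.0 and 16.4 CPM in WT sham, 34.4, 33.6 and 21.0 CPM in F3-KO sham, 125, 43.8 and 23.9 CPM in WT TAC and 142, 308 and 40.2 CPM in F3-KO TAC hearts. Of the fibrillar genes, *Col5a2* was the 1 whose 3 F3-KO TAC hearts all exceeded the 3 F3-KO sham hearts, by a log2 fold change of 2.46 (SE 0.68, adjusted p = 0.175, edgeR). The ratio of *Col5a1* to *Col5a2* counts was 1.41 to 1.97 in sham hearts and 0.811 to 1.63 in TAC hearts. *Col11a2* and *Col27a1*, fibrillar genes best known from cartilage, had averaged log2 fold changes under 0.3, with 1.00 to 2.91 CPM and 4.18 to 14.9 CPM over the 12 hearts.

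**Figure D3:**
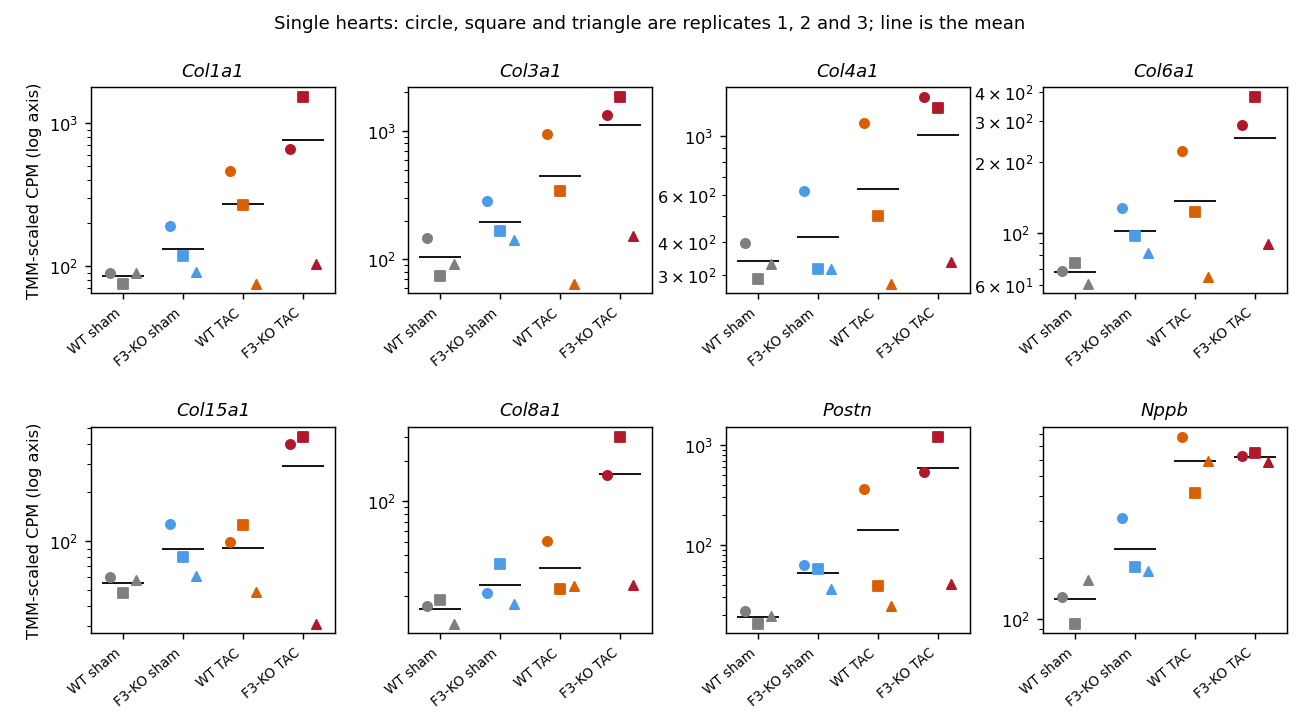
TMM-scaled CPM on log axes for 6 collagen genes, the activated fibroblast gene *Postn* and the load-responsive *Nppb* in single hearts (circle, square and triangle for replicates 1, 2 and 3, line for the group mean). The triangles of both TAC groups lie among or below the sham hearts of both genotypes for the collagens and for *Postn* (24.4 and 40.7 CPM), whereas for *Nppb* they stay with the other TAC hearts (589 and 584 CPM).

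The basement membrane genes varied along the same hearts, in a narrower range. *Col4a1* (NCBI gene 12826) was 396, 291 and 330 CPM in WT sham, 621, 317 and 317 CPM in F3-KO sham, 1120, 498 and 278 CPM in WT TAC and 1400, 1270 and 336 CPM in F3-KO TAC hearts. Its log2 fold change of TAC against sham was 0.90 (SE 0.54, adjusted p = 0.810, edgeR) in WT and 1.26 (SE 0.55, adjusted p = 0.267, edgeR) in F3-KO. *Col4a2* was 322, 244 and 298 CPM in WT sham, 485, 249 and 253 CPM in F3-KO sham, 753, 356 and 237 CPM in WT TAC and 908, 875 and 285 CPM in F3-KO TAC hearts. The ratio of *Col4a1* to *Col4a2* counts was 1.11 to 1.55. The *Col4a1* and *Col4a2* genes lie on opposite strands of chromosome 8, and their RefSeq start sites (GRCm38.p6) are 21 bases apart. The start of *Col4a1*, on the minus strand, has the higher coordinate, so the first bases of the transcripts overlap and no gap lies between them. Windows from 250 bases before to 50 after each start share 78 bases, at chr8:11312777-11312854.

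The minor type IV chains were weaker. *Col4a3* was 4.57, 2.57 and 2.78 CPM in WT sham, 4.66, 6.23 and 5.13 CPM in F3-KO sham, 9.57, 3.61 and 3.80 CPM in WT TAC and 11.5, 10.4 and 5.20 CPM in F3-KO TAC hearts. *Col4a5*, an X-linked chain, was 31.3 to 65.4 CPM over the 12 hearts, and its F3-KO TAC hearts lay above its F3-KO sham hearts (log2 fold change 0.50, SE 0.24, adjusted p = 0.308, edgeR). As with *Col4a3*, all values of *Col4a4* in F3-KO sham hearts lay above those in WT sham hearts.

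Type VI collagen forms beaded filaments around cells. *Col6a1* was 68.6, 74.0 and 60.4 CPM in WT sham, 127, 97.1 and 81.6 CPM in F3-KO sham, 223, 122 and 64.6 CPM in WT TAC and 288, 380 and 89.1 CPM in F3-KO TAC hearts. *Col6a2* was 61.0, 63.2 and 61.7 CPM in WT sham, 133, 90.7 and 69.4 CPM in F3-KO sham, 203, 133 and 57.3 CPM in WT TAC and 324, 335 and 59.2 CPM in F3-KO TAC hearts. *Col6a3* was 19.6, 31.3 and 24.7 CPM in WT sham, 40.8, 33 and 22.9 CPM in F3-KO sham, 64.5, 52.0 and 23.2 CPM in WT TAC and 162, 147 and 23.9 CPM in F3-KO TAC hearts. For all 3 chains, replicates 1 and 2 of both TAC groups lay above the sham hearts of their own genotype and replicate 3 did not.

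*Col6a6*, an alternative chain of the same type, was 6.19, 4.77 and 3.44 CPM in WT sham, 5.49, 7.61 and 6.51 CPM in F3-KO sham, 9.63, 10.3 and 4.80 CPM in WT TAC and 7.59, 6.57 and 5.18 CPM in F3-KO TAC hearts. It had the smallest p of the members for TAC against sham in WT (log2 fold change 0.79, SE 0.31, adjusted p = 0.782, edgeR), and -0.02 (SE 0.30, adjusted p = 0.986, edgeR) in F3-KO. The difference of these effects was -0.80 (SE 0.43, adjusted p = 0.954, edgeR). *Col6a5* was near the floor, at 1.49, 0.183 and 0.409 CPM in WT sham, 0.333, 0.0882 and 0.183 CPM in F3-KO sham, 1.43, 0.798 and 0.300 CPM in WT TAC and 0.379, 0.257 and 1.08 CPM in F3-KO TAC hearts.

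The FACIT genes differed among themselves. *Col14a1*, which binds the surface of type I fibrils, was 13.8, 17.4 and 11 CPM in WT sham, 27.4, 24.7 and 20.7 CPM in F3-KO sham, 40.9, 26 and 18.4 CPM in WT TAC and 66.2, 116 and 26.6 CPM in F3-KO TAC hearts. It was higher in all 3 WT TAC hearts than in all 3 WT sham hearts (log2 fold change 1.02, SE 0.44, adjusted p = 0.782, edgeR), and the same held for F3-KO sham against WT sham hearts (0.79, SE 0.44, adjusted p = 0.969, edgeR). *Col16a1*, a FACIT of fibrils and cell surfaces, was 5.73, 6.78 and 5.73 CPM in WT sham, 10.9, 10.7 and 7.70 CPM in F3-KO sham, 20.8, 8.63 and 6.30 CPM in WT TAC and 27.2, 53.2 and 10.1 CPM in F3-KO TAC hearts. *Col20a1* was 9.94 to 15.0 CPM in every heart, with averaged log2 fold change -0.02 (SE 0.12, adjusted p = 0.966, edgeR).

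*Col12a1*, a FACIT of tissues under tension, was 1.94, 1.37 and 1.06 CPM in WT sham, 1.58, 3.29 and 0.825 CPM in F3-KO sham, 4.79, 2.20 and 1.30 CPM in WT TAC and 7.89, 42.3 and 0.990 CPM in F3-KO TAC hearts. Its TAC against sham log2 fold change of 3.16 in F3-KO (SE 0.99, adjusted p = 0.184, edgeR) rested mainly on replicate 2, which was 42.3 CPM against 0.990 CPM in replicate 3. *Col22a1*, a FACIT of muscle-tendon junctions, had 133 counts in F3-KO TAC replicate 2 and 6 and 3 in the other F3-KO TAC hearts, against 1, 3 and 2 counts in F3-KO sham hearts. In WT it had 11, 4 and 8 counts after sham and 9, 11 and 2 after TAC. With so few counts in the sham hearts, no fold is given or plotted for it.

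The multiplexins sit where basement membranes meet fibrils, around vessels and muscle cells. *Col15a1* was 60.2, 47.8 and 57.8 CPM in WT sham, 127, 79.4 and 60.5 CPM in F3-KO sham, 99.4, 126 and 48.4 CPM in WT TAC and 396, 441 and 30.8 CPM in F3-KO TAC hearts. The F3-KO TAC group thereby held both the highest values and the lowest of the 12 hearts. *Col18a1*, the source of endostatin, was 11.4, 9.99 and 9.76 CPM in WT sham, 17.8, 12.1 and 9.44 CPM in F3-KO sham, 28.7, 13.7 and 7.44 CPM in WT TAC and 43.9, 36.0 and 12.2 CPM in F3-KO TAC hearts.

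The network-forming type VIII collagen is a short-chain collagen of vessel walls. *Col8a1* was 16.7, 18.7 and 12.4 CPM in WT sham, 20.9, 34.2 and 17.4 CPM in F3-KO sham, 50.8, 22.3 and 23.7 CPM in WT TAC and 156, 300 and 24.2 CPM in F3-KO TAC hearts. All 3 WT TAC hearts lay above all 3 WT sham hearts, with a log2 fold change of 1.02 (SE 0.66, adjusted p = 0.829, edgeR), and in F3-KO the value was 2.73 (SE 0.67, adjusted p = 0.175, edgeR) with overlapping groups. *Col8a2* was 0.164 to 0.881 CPM in 10 hearts, 2.35 CPM in F3-KO TAC replicate 1 and 32 CPM in F3-KO TAC replicate 2. The transmembrane members *Col13a1* and *Col23a1* ranged from 1.15 to 3.53 CPM and from 2.35 to 5.93 CPM, with averaged log2 fold changes of -0.08 and 0.13. *Col28a1*, a collagen known from peripheral nerves, was 2.23, 1.37 and 1.15 CPM in WT sham, 1.91, 1.82 and 1.92 CPM in F3-KO sham, 9.10, 0.528 and 1.00 CPM in WT TAC and 3.95, 3.32 and 3.55 CPM in F3-KO TAC hearts. It was among the members whose F3-KO TAC replicate 3 stood with the other F3-KO TAC hearts (TAC against sham in F3-KO, log2 fold change 0.93, SE 0.76, adjusted p = 0.566, edgeR). *Col26a1* ranged from 0.412 to 4.70 CPM and *Col7a1* from 0 to 1.79 CPM.

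Groups that did not overlap were counted next. In WT, 2 of 32 members (6.25%, *Col14a1* and *Col8a1*) were higher in every TAC heart than in every sham heart, against 4.67% of all genes. In F3-KO, 3 members (9.38%, *Col5a2*, *Col4a5* and *Col28a1*) were, against 11.5% of all genes. These shares were near those of all genes. In the averaged contrast, where all 6 TAC hearts had to exceed all 6 sham hearts, no member did so, against 0.561% of all genes.

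The genotypes were compared within each surgery. After sham, 26 of 32 members had a log2 fold change of F3-KO against WT above 0, with a median of 0.41 (0.00 over all genes), and no member had an unadjusted p under 0.05, against 2.81% of all genes higher and 3.21% lower. In 9 members (28.1%) every F3-KO sham heart exceeded every WT sham heart, against 6.74% of all genes. These were *Col1a1*, *Col1a2*, *Col4a3*, *Col4a4*, *Col6a1*, *Col6a2*, *Col14a1*, *Col15a1* and *Col16a1*. The gaps were small for some, as the highest WT sham and the lowest F3-KO sham value were 90.4 and 91.1 CPM for *Col1a1*. *Col22a1* was the member that was lower in all F3-KO sham hearts (against 6.9% of all genes), on counts of 11 or fewer in WT and at or under the floor in F3-KO.

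After TAC, 28 of 32 members had a value above 0, with a median log2 fold change of 0.87 (0.02 over all genes), and 7 members were higher at an unadjusted p under 0.05 (21.9%, against 5.84% of all genes) and none lower (4.16% of all genes). They were *Col8a1* (log2 fold change 2.31, SE 0.66, adjusted p = 0.377, edgeR), *Col8a2*, *Col14a1*, *Col12a1*, *Col16a1*, *Col15a1* and *Col6a3*. *Col8a2* became a member mainly through F3-KO TAC hearts, so its place here carries no weight of its own. None of the 7 is a fibrillar collagen. The median log2 fold change of the fibrillar class was 1.15, above that of all members, but its smallest unadjusted p was 0.0575 (edgeR). These values do not show whether the class differed between the genotypes. *Col1a1* and *Col3a1* had log2 fold changes of 1.49 (SE 0.76, adjusted p = 0.528, edgeR) and 1.30 (SE 0.86, adjusted p = 0.599, edgeR). Of the members, *Col20a1* alone had all F3-KO TAC hearts above all WT TAC hearts (3.12%, against 6.31% of all genes), at 12.5 to 14.4 against 11.8 to 12.5 CPM. The difference of the TAC effect between the genotypes was above 0 in 27 of 32 members, with a median of 0.41 (0.03 over all genes), which turned to -0.06 when F3-KO TAC replicate 2 was left out and became 1.05 when WT TAC replicate 1 was. Here 1 member, *Col22a1*, had an unadjusted p under 0.05 there (3.12%, against 2.31% of all genes), with none lower (2.18%).

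The spread between hearts of a group limited these tests. The median SD of log2 CPM within a group was 0.26 for the 32 tested members and 0.22 for all genes in WT sham, 0.35 and 0.16 in F3-KO sham, 0.75 and 0.24 in WT TAC, and 1.12 and 0.23 in F3-KO TAC hearts. Replicate 3 was the lowest heart of its group for 24 of 33 members in WT TAC and 27 of 33 in F3-KO TAC, and F3-KO TAC replicate 2 was the highest of all 12 hearts for 20 members. Against the sham hearts of their own genotype, WT TAC replicates 1, 2 and 3 lay above all of them for 25, 22 and 3 of 33 members, where 31.6%, 23.5% and 22.2% of all genes did. F3-KO TAC replicates 1, 2 and 3 did so for 26, 29 and 4 members, where 36.5%, 36.5% and 31.4% of all genes did.

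**Figure D4:**
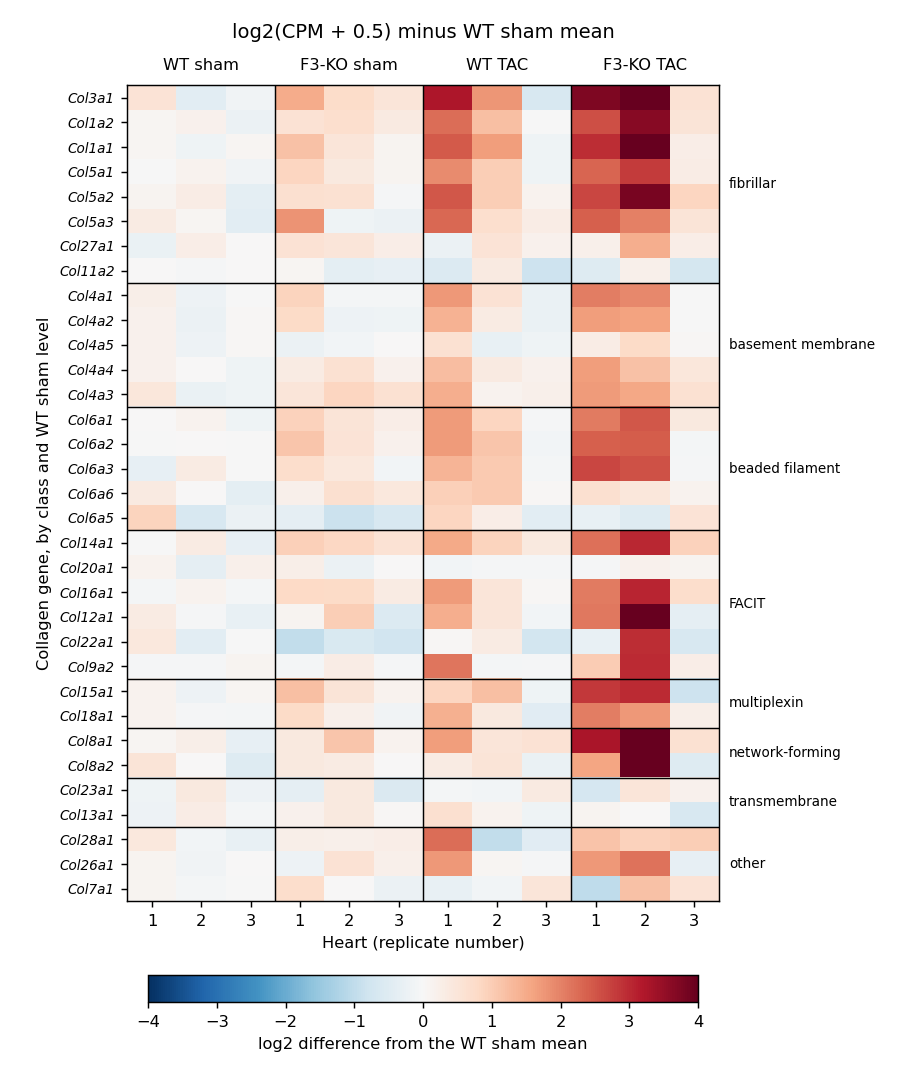
log2(CPM + 0.5) of the 33 collagen genes (rows, by class) in the 12 hearts (columns, replicates 1, 2 and 3 of each group), minus the WT sham mean of the gene; the colour scale stops at 4 in both directions. The columns of replicate 3 in both TAC groups are pale, and the column of F3-KO TAC replicate 2 is the darkest.

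Without F3-KO TAC replicate 3, the same edgeR test called 16 members higher in TAC against sham in F3-KO, where 3.65% of all genes were called higher, 18 in the averaged contrast (4.36% of all genes) and 4 in F3-KO against WT after TAC (0.474% of all genes). The 4 members were *Col8a1* (log2 fold change 2.82, adjusted p = 0.0152), *Col15a1* (2.19, adjusted p = 0.0259), *Col8a2* (4.73, adjusted p = 0.044) and *Col14a1* (1.67, adjusted p = 0.044). The 16 members in F3-KO comprised *Col1a1*, *Col1a2*, *Col3a1*, *Col5a1*, *Col5a2*, *Col6a1*, *Col6a2*, *Col6a3*, *Col8a1*, *Col8a2*, *Col12a1*, *Col14a1*, *Col15a1*, *Col16a1*, *Col18a1* and *Col22a1*. No type IV chain passed, but some came close to the threshold. Their smallest adjusted p over the alternative fits (edgeR or DESeq2) was 0.0549 for *Col4a4*, 0.0566 for *Col4a1*, 0.0618 for *Col4a2*, 0.132 for *Col4a3* and 0.14 for *Col4a5*. It was 0.0496 for *Col18a1*, which was called. The 18 of the averaged contrast included *Col4a1*, *Col4a4* and *Col9a2*, the last of which passed the filter on low counts in this fit. *Col8a2* and *Col9a2* became members through TAC hearts only, so their calls as higher after TAC carry no weight of their own. For *Col8a2* these hearts were WT TAC replicate 2, with 10 counts, and F3-KO TAC replicates 1 and 2, with 31 and 502 counts. Calls of *Col8a2* as higher in F3-KO than in WT after TAC, in any fit, therefore carry no weight of their own either. The call of *Col22a1* in F3-KO rested on replicate 2, with 133 counts against 6 in replicate 1. DESeq2's Wald test on all hearts called 5 members higher in F3-KO, where 1.99% of all genes were called higher, 9 in the averaged contrast (3.52%) and 1, *Col8a2*, in F3-KO against WT after TAC (0.362%). Leaving out any other single heart in edgeR gave 0 calls among the members in each of the 6 comparisons, and in the interaction 0 members were called whichever heart was left out.

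Markers of load and of other cells were read beside the low collagen values of replicate 3. In F3-KO TAC hearts, *Nppb* was 626, 647 and 584 CPM, and in WT TAC hearts 776, 411 and 589 CPM, so that replicate 3 was not at the sham level. *Acta1*, skeletal actin that is re-expressed in loaded cardiomyocytes, was 3200, 762 and 800 CPM in WT TAC and 3560, 3570 and 3040 CPM in F3-KO TAC hearts, against 44.9 to 753 CPM in sham hearts. *Nppa* was 1110, 143 and 614 CPM in WT TAC and 153, 3840 and 1020 CPM in F3-KO TAC hearts, and its groups overlapped. *Myh7*, whose reads can be shared with the near-identical *Myh6*, was 21600 and 23100 CPM in the replicate 3 hearts and 174 to 9180 CPM in the other 10 hearts.

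The 10 fibroblast markers summed to 1540 to 3020 CPM in sham hearts, 2230, 2040 and 2890 CPM in WT TAC hearts and 2100, 2690 and 2930 CPM in F3-KO TAC hearts, of which *Dcn* and *Gsn* held most. Single markers were mixed: *Lum*, a proteoglycan of collagen fibrils, was 125, 77.6 and 77.3 CPM in WT TAC and 212, 271 and 74.2 CPM in F3-KO TAC hearts, lowest in replicate 3 of both, whereas *Pdgfra*, a fibroblast receptor, was 67.5, 38 and 54.2 CPM and 51.1, 58.1 and 65 CPM. The 10 activated fibroblast markers summed to 117 to 229 CPM in sham hearts, 516, 277 and 138 CPM in WT TAC hearts and 950, 2240 and 141 CPM in F3-KO TAC hearts, in the order of the collagen sums within each TAC group. *Acta2*, also a smooth muscle gene, held 65.6 CPM of the sum in WT TAC replicate 3 and 154 CPM of that in WT sham replicate 3. Marker by marker, replicate 3 was not uniformly at the sham level: in WT, 7 of the 10 had every TAC heart above every sham heart, against 4.67% of all genes. In F3-KO 3 of the 10 did, against 11.5% of all genes. *Cilp*, an activated fibroblast gene, was 22.3, 9.86 and 14 CPM in WT TAC hearts against 3.01, 3.76 and 4.66 CPM in WT sham hearts. *Postn*, periostin of activated fibroblasts, was 361, 39 and 24.4 CPM in WT TAC and 537, 1220 and 40.7 CPM in F3-KO TAC hearts, against 21.8, 16.2 and 19.4 CPM in WT sham and 63.7, 58.2 and 36.7 CPM in F3-KO sham hearts. Its WT groups did not overlap, although replicate 3 was close to the sham hearts, and its F3-KO groups did. The 10 endothelial markers summed to 1580 to 2600 CPM in sham hearts, 2730, 1830 and 1470 CPM in WT TAC hearts and 2620, 2130 and 1480 CPM in F3-KO TAC hearts, with the lowest value of each TAC group again in replicate 3. The 8 macrophage markers summed to 300 to 610 CPM in sham, 553 to 830 CPM in WT TAC and 668 to 937 CPM in F3-KO TAC hearts, and 10 cardiomyocyte markers to 66800 to 107000 CPM in the other groups and 56700 to 70600 CPM in F3-KO TAC hearts. Chondrocyte markers summed to 28.8 CPM in F3-KO TAC replicate 2 and at most 21.1 CPM elsewhere. Markers of the atria, *Nppa* among them, summed to 44.9 to 345 CPM in sham, 1120, 151 and 627 CPM in WT TAC and 160, 3910 and 1030 CPM in F3-KO TAC hearts. The atrial genes *Myl7* and *Myl4* were 8.55 and 13.8 CPM in F3-KO TAC replicate 2, and 8.13 and 14.2 CPM in F3-KO sham replicate 2. The part of cell composition in the collagen values was not tested.

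The genes that build and trim collagen were read from a separate list. Of 30 tested genes for collagen synthesis and processing, 7 were higher and 1 lower at an unadjusted p under 0.05 in the averaged contrast, against 11.3% and 6.52% of all genes, none at an adjusted p under 0.05, and their median log2 fold change was 0.19. *Adamts2*, which removes the N-terminal propeptide of procollagen, was 24.4, 22.6 and 19.1 CPM in WT sham, 28.9, 26.6 and 22.5 CPM in F3-KO sham, 89.4, 36.3 and 23.6 CPM in WT TAC and 84.2, 125 and 33.8 CPM in F3-KO TAC hearts (averaged log2 fold change 1.41, SE 0.34, adjusted p = 0.104, edgeR). *Sparc*, a collagen-binding matrix protein, was 404, 323 and 283 CPM in WT sham, 624, 415 and 448 CPM in F3-KO sham, 1330, 546 and 230 CPM in WT TAC and 1730, 2210 and 305 CPM in F3-KO TAC hearts. *Pcolce*, the enhancer of C-terminal trimming, was 0.81 higher (SE 0.25, adjusted p = 0.150, edgeR) on the log2 scale. *Adamts14* and *Tll1*, further procollagen proteases, had averaged log2 fold changes of 1.12 and 0.90 at 0.464 to 5.11 CPM.

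*P3h4*, a component of the endoplasmic reticulum complex that modifies collagen chains, went the other way. It was 40.7, 33.6 and 38.9 CPM in WT sham, 36.1, 32.9 and 33.3 CPM in F3-KO sham, 30.1, 35 and 30.4 CPM in WT TAC and 24.3, 19.6 and 25.3 CPM in F3-KO TAC hearts. All F3-KO TAC hearts were below all other hearts, replicate 3 included. The log2 fold change was -0.41 (SE 0.09, adjusted p = 0.104, edgeR) in the averaged TAC contrast and -0.47 (SE 0.13, adjusted p = 0.374, edgeR) for F3-KO against WT after TAC.

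Of 10 tested genes for collagen receptors and uptake, 7 were higher and none lower at an unadjusted p under 0.05 in the averaged contrast, against 11.3% and 6.52% of all genes, with a median log2 fold change of 0.36 and 0 at an adjusted p under 0.05. *Lair1*, an inhibitory collagen receptor of leukocytes, was 3.21, 2.93 and 2.29 CPM in WT sham, 2.66, 2.77 and 1.65 CPM in F3-KO sham, 3.06, 5.28 and 2.40 CPM in WT TAC and 8.96, 7.21 and 6.85 CPM in F3-KO TAC hearts. Every F3-KO TAC heart exceeded every other heart (F3-KO against WT after TAC, log2 fold change 1.09, SE 0.31, adjusted p = 0.378, edgeR). *Ddr2*, a tyrosine kinase of fibroblasts that binds fibrillar collagen, was 48.7, 44.8 and 41.8 CPM in F3-KO TAC hearts and 23.6 to 37.1 CPM in the other 9 hearts, again with replicate 3 among the high values. *Mrc2*, which takes up collagen fragments, was 68.5, 91.7 and 26.7 CPM in F3-KO TAC hearts and 19.9 to 35.2 CPM in the others, with replicate 3 low as for the collagens.

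Promoter windows of RefSeq (GRCm38.p6, from 250 bases before to 50 after each start) were found for 26 of the 33 members, in 28 windows. The letters GGGCGG, read on both strands, stood in 67.9% of these windows and in 35.6% of all 32817 windows. CCAAT stood in 28.6% and 37.4%, and TATAAA in 10.7% and 13.6%. These matches only describe the letters in the windows.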

How the data were processed

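RNA of 12 mouse hearts was sequenced by the authors, 3 in each group, and grouped by the sample labels. The authors deposited estimated counts per gene without normalization, of which 40.6% were not whole, and these were rounded to whole numbers for the tests, which had been planned for whole counts. Submitters' processing notes name HISAT2 2.0.4, STAR 2.3.0 and DESeq2, and the tool that counted reads and the role of the named builds (mm8 and mm9) are not given in the sources used here, so no positions come from the count table. How reads shared by similar genes were counted is likewise not given. Separate tables of single hearts repeated the joint table, which alone was used; that of WT sham replicate 2 breaks off early.

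Genes were filtered with filterByExpr (minimum count 10), normalised by TMM (factors 0.931 to 1.09) and modelled as 4 groups in edgeR 4.0.16 (quasi-likelihood test, R 4.3.3). Contrasts were called at a Benjamini-Hochberg adjusted p under 0.05, and 14094 genes were tested. The test was checked on simulated counts. The members and gene lists were chosen with earlier results of these data known. By rule, any member could be named, single-heart values were given for the major chains and the members with the smallest p in each contrast, and up to 6 processing genes and 3 receptor genes with the smallest p in the averaged contrast were named, with *Fabp3*, *Nppa*, *Nppb*, *Acta1* and *Myh7*. *Postn*, *Col20a1* and the remaining single genes were added after their values were seen. Levels per kilobase and codon runs used 1 principal transcript per gene of GENCODE vM21. Figures were drawn with matplotlib 3.10.9.

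Total counts were 10424334 to 14372011 per heart. The 3 hearts of a group are separate by their labels, and whether p-values cover the spread between animals rests on those labels. Replicates of a group differed by a chi-square of 10.4 to 85.4 per degree of freedom over 12 pairs, so none was merged. No permutation test was used, since its smallest two-sided exact p for 3 against 3 hearts is 0.1. Alternatives were DESeq2 1.42.0 (Wald test), its size factors in edgeR, no filter and a filter of 10 counts in every library, the replicate number as a block, only the groups compared, unadjusted p, scaling by the library total, and leaving out each heart.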

Additional observations from a re-analysis of the deposited data

How the results depend on the processing

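The count of collagen genes called was 0 in all 6 comparisons with edgeR, and it was also 0 with DESeq2's size factors, without a filter, with at least 10 counts in every library and with the replicate block (0 called, smallest adjusted p 0.0732 in the averaged contrast). Fitting only the groups compared gave 0 in the 4 comparisons of 2 groups, and was not run for the averaged contrast and the interaction, which use all groups. Of the 18 pairs of same-numbered hearts, 5 had a correlation of deviations over 0.1 (r from -0.161 to 0.382, the highest between the replicate 3 hearts of the TAC groups), and 6 of 12 hearts correlated best with their own number. Since not every pair was over 0.1 and the labels give no shared origin, the numbers were not taken to pair the hearts. DESeq2's Wald test called 5 members for TAC against sham in F3-KO (443 of 14080 genes in all), 9 in the averaged contrast (656 of 14080 genes), 1 for F3-KO against WT after TAC (101 of 14080 genes) and 0 in the other 3 comparisons. At an unadjusted p under 0.05 the members, all higher, were 5 of 32 for TAC against sham in WT, 19 in F3-KO and 22 in the averaged contrast. The shares of all genes that were higher there were 3.68%, 10.6% and 11.3%. They were 7 for F3-KO against WT after TAC (5.84% of all genes higher), 1 in the interaction (3.12%, near the 2.31% of all genes) and 0 after sham (2.81%). Over the hearts left out in turn, the calls ranged from 0 to 16 for TAC against sham in F3-KO, 0 to 18 in the averaged contrast and 0 to 4 for F3-KO against WT after TAC, each high value being the one without F3-KO TAC replicate 3, where 778, 849 and 103 of 14340 genes were called in all. The cause was not tested.

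Over these fits the median log2 fold change of the members moved most without single TAC hearts. In WT it was 0.30 without WT TAC replicate 1 and 1.20 without replicate 3. In F3-KO it was 0.96 without F3-KO TAC replicate 2 and 1.71 without replicate 3. For F3-KO against WT after TAC it was 0.46 when F3-KO TAC replicate 2 was left out and 1.49 when WT TAC replicate 1 was, and the interaction was -0.06 and 1.05 without the same hearts. With scaling by the library total, the mean collagen sum of each of the 4 groups stayed within 1 SD of its value with TMM factors. Genes with 10 counts or more in only 3 hearts (*Col6a5*, *Col7a1*, *Col8a2*, *Col9a2* and *Col22a1*) carry the least depth, and small differences in them were not detectable.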
